A study of Mus musculus with 6 samples.

Results

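Secreted and membrane proteins enter the endoplasmic reticulum (ER), are folded and checked there, and leave in coated vesicles. The 38 genes described here encode that machinery together with the sensors and transcription factors of the unfolded protein response. They were taken as a list of gene symbols, with no measured value in the rule, but the list was chosen with earlier results of these data known. All 38 were found among the 37991 Ensembl identifiers counted. Messenger RNA was sequenced from group 2 innate lymphoid cells (ILC2), tissue lymphocytes that secrete type 2 cytokines. The cells had been sorted as lineage-negative Thy1+ ST2+ cells from mice homozygous for an Id1 transgene, and each of 3 groups had 2 libraries. Cultured cells came from mesenteric lymph nodes (MLN) and had spent 1 week in culture with 3 cytokines, IL-33, IL-25 and IL-7, each at 10 ng/ml. Thymus cells and fresh MLN cells were used without culture. The transgene places Id1, whose product binds E proteins and keeps them off DNA, under the proximal promoter of lck, a promoter known from T lineage cells. It was made in FVB/N mice and moved to C57BL/J by 10 or more generations of crossing. All 3 groups carry it, so none shows ILC2 without the transgene. About 300000 cells went into a library, and neither the age of the mice nor whether replicate libraries stem from different animals or cultures is stated. P-values therefore measure only the spread between these libraries, which may be technical.

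Library totals ran from 35280692 to 40578264 counts, and levels are given as CPM, counts scaled to a common library size, with totals adjusted by TMM factors. Id1 RNA stood at 1.48 and 1.19 CPM in cultured cells, 422 and 426 CPM in thymus and 434 and 469 CPM in fresh MLN, a log2 fold change of -8.41 ± 0.11 for cultured over fresh MLN. The libraries labelled cultured therefore held almost no Id1 RNA, whether from the transgene or from the mouse gene, and the part this plays in any difference below was not tested. Markers of ILC2 were present in every library. Gata3, a defining transcription factor of the lineage, had 1034 and 1064 CPM in cultured cells, 648 and 673 CPM in thymus, and 622 and 599 CPM in fresh MLN, and Il1rl1, which encodes the ST2 receptor used for sorting, had 2289 and 2342 CPM in cultured cells, 1457 and 1444 CPM in thymus, and 1885 and 1818 CPM in fresh MLN. The summed CPM of 10 ILC2 markers lay between 15203 and 15487 in cultured cells, 8339 and 8464 in thymus, and 10533 and 10552 in fresh MLN. In cultured against fresh MLN 6 of the 10 were higher and 4 lower by the test named below, against 39.4% and 38.1% of all tested genes. The higher sum rested on Il2ra, a receptor subunit for IL-2, with 7901 and 7761 CPM in cultured cells, against 814 and 715 CPM in fresh MLN. Il17rb, which encodes a receptor subunit for IL-25, fell to 118 and 106 CPM in cultured cells, against 2896 and 2916 CPM in fresh MLN. Thy1, the other positive sorting marker, fell to 107 and 119.6 CPM in cultured cells, against 371 and 299.7 CPM in fresh MLN. In thymus against fresh MLN 2 of the 10 markers were higher and 5 lower, against 25.3% and 22% of all tested genes. Klrg1 and Id2 were among the lower, with mean CPM of 31.6 and 473 in thymus, against 79.3 and 874 in fresh MLN. Thy1 was among the higher, with mean CPM of 731 in thymus, against 335 in fresh MLN. In bulk RNA, fewer cells of a kind and less RNA per cell cannot be told apart.

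Unfolded protein in the ER is sensed by 3 membrane proteins. IRE1, encoded by Ern1, removes an intron from Xbp1 mRNA so that an active transcription factor is made; PERK, encoded by Eif2ak3, phosphorylates eIF2 and so slows translation while favouring ATF4; ATF6 is cut in the Golgi to release a transcription factor. XBP1 and ATF6 drive chaperone, translocation and transport genes through ER stress elements in promoters, and cells with a high secretory load, such as plasma cells, are known for using this program. Counts per gene show neither the splicing of Xbp1 nor the phosphorylation or cleavage of the sensors.

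Promoter sequences are shown because ER stress elements are the textbook route from ATF6 and XBP1 to these genes. They were taken from RefSeq promoters of build GRCm38.p6, which cover 250 bases before to 50 bases after a gene's start, and 30 of the 38 members had an entry. No promoter was read for Atf6, Hyou1, Manf, Sec61a1, Ssr2, Sec11c, Spcs3 and Kdelr2. On both strands, 3 motifs were searched: the ER stress element (ERSE), which is CCAAT, 9 bases of any kind and CCACG; the second ER stress element (ERSE-II), which is ATTGG, 1 base of any kind and CCACG; and the unfolded protein response element (UPRE), which is TGACGTGG. No 2 matches overlapped in a member. The ERSE was found in 7 of 30 member promoters (23.3%), against 18 of 13660 promoters of tested genes (0.132%) and 39 of 32851 promoters in the table (0.119%). The ERSE-II was found in 2 members (6.67%), against 0.0586% of promoters of tested genes and 0.0365% of all promoters, and the UPRE in 2 members (6.67%), against 0.842% and 0.676%. Because the list holds textbook targets of these elements, the members' shares were partly set by the choice of genes and are description only. Members with a match are printed below with the matched bases in capitals. The first 3 are whole promoters: Hspa5 as the classical ER stress gene (chr2:34771840-34772139, plus strand), Dnajc3 as the member called in no comparison (chr14:118937682-118937981, plus strand) and Kdelr3 as the member with the largest change after culture (chr15:79516158-79516457, plus strand).
Hspa5 promoter: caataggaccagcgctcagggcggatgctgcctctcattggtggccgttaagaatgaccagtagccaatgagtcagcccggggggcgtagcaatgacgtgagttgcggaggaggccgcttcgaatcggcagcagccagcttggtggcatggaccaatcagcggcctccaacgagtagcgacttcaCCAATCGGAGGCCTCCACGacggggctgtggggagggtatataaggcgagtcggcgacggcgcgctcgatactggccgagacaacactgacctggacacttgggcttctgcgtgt
Dnajc3 promoter: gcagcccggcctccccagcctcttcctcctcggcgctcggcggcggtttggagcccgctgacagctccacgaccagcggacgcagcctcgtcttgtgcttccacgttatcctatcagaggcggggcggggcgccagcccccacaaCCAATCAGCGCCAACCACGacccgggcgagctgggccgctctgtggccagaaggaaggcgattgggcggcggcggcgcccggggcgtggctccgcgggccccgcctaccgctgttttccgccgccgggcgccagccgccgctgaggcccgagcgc
Kdelr3 promoter: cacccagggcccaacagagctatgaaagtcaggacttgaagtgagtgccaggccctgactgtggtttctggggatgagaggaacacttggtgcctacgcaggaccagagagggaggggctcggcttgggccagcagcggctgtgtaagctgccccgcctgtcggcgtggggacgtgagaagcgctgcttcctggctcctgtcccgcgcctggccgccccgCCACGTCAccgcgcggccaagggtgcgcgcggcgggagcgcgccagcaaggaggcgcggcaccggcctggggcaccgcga
The others are the matched stretch with 10 bases on either side, read in the direction of the gene, so that a match of the opposite strand shows as the reverse complement of the motif. Their positions are chr10:86705523-86705666, minus strand for Hsp90b1, chr15:88819510-88819548, plus strand for Creld2, chr12:17266481-17266519, plus strand for Pdia6, chr8:84847065-84847103, minus strand for Calr, chr11:50325790-50325828, minus strand for Canx, chr16:22857842-22857872, plus strand for Dnajb11, chr8:94386367-94386397, plus strand for Herpud1 and chr3:123267460-123267487, plus strand for Sec24d. Hsp90b1 held 2 ERSE matches, of opposite direction.
Hsp90b1 ERSE: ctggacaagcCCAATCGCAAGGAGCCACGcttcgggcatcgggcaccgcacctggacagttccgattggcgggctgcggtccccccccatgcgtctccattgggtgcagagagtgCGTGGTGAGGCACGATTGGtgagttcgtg
Creld2 ERSE: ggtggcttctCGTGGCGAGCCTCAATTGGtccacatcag
Pdia6 ERSE: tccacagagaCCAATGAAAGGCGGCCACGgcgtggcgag
Calr ERSE: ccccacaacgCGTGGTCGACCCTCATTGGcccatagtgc
Canx ERSE: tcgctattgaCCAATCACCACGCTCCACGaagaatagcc
Dnajb11 ERSE-II: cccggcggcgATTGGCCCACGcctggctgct
Herpud1 ERSE-II: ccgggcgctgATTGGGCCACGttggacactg
Sec24d UPRE: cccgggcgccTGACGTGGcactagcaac

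After culture nearly the whole list was higher than in fresh MLN. Of 38 members, 37 were higher and 0 lower by edgeR's quasi-likelihood test with Benjamini-Hochberg adjustment over all genes (adjusted p under 0.05, called below), against 39.4% of all 16231 tested genes called higher and 38.1% called lower. The median log2 fold change of the members was 2.28, and that of all tested genes was -0.0072. Because the list was chosen with earlier results of these data known, its contrasts with all genes are description only. A rise of at least 2-fold was called in 31 members, and in 23.3% of tested genes. The cultured and fresh libraries did not overlap for 37 members, as for 89.2% of tested genes in either direction. Together the 38 genes took 2.21 and 2.20% of all counts in cultured cells, 0.747 and 0.748% in thymus, and 0.663 and 0.619% in fresh MLN. Dnajc3 was the exception in the list, with a log2 fold change of -0.022 ± 0.067.

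Thymus cells differed from fresh MLN in the same list by much smaller amounts. In thymus 25 members were called higher and 2 lower, and 11 were not called, against 25.3% of tested genes called higher and 22% called lower. The median log2 fold change was 0.27 for the members and 0.00 for all tested genes. A single member, Sdf2l1, was called with at least a 2-fold rise, as were 9.14% of tested genes. Without fresh MLN replicate 2, 18 members were called higher; Calr, Creld2, Spcs1, Ssr4, Eif2ak3, Dnajb11, Pdia3 and Sec61a1 each lost the call without at least 1 of the libraries. The 2 members that fell were Ern1 and Sec11c. Ern1 had 342 and 322 CPM in thymus, against 457 and 556 CPM in fresh MLN, and Sec11c 225 and 240.2 CPM in thymus, against 316 and 312 CPM in fresh MLN.

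Set against thymus, cultured cells were higher in 37 members and lower in 0, with 34.8% of tested genes called higher and 37.8% lower. The median log2 fold change was 1.85 for the members and -0.058 for all tested genes, and 32 members, against 18.4% of tested genes, were called with at least a 2-fold rise. Organ and culture cannot be told apart in that comparison, and both comparisons of cultured cells share the same 2 cultured libraries.

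**Figure D1:**
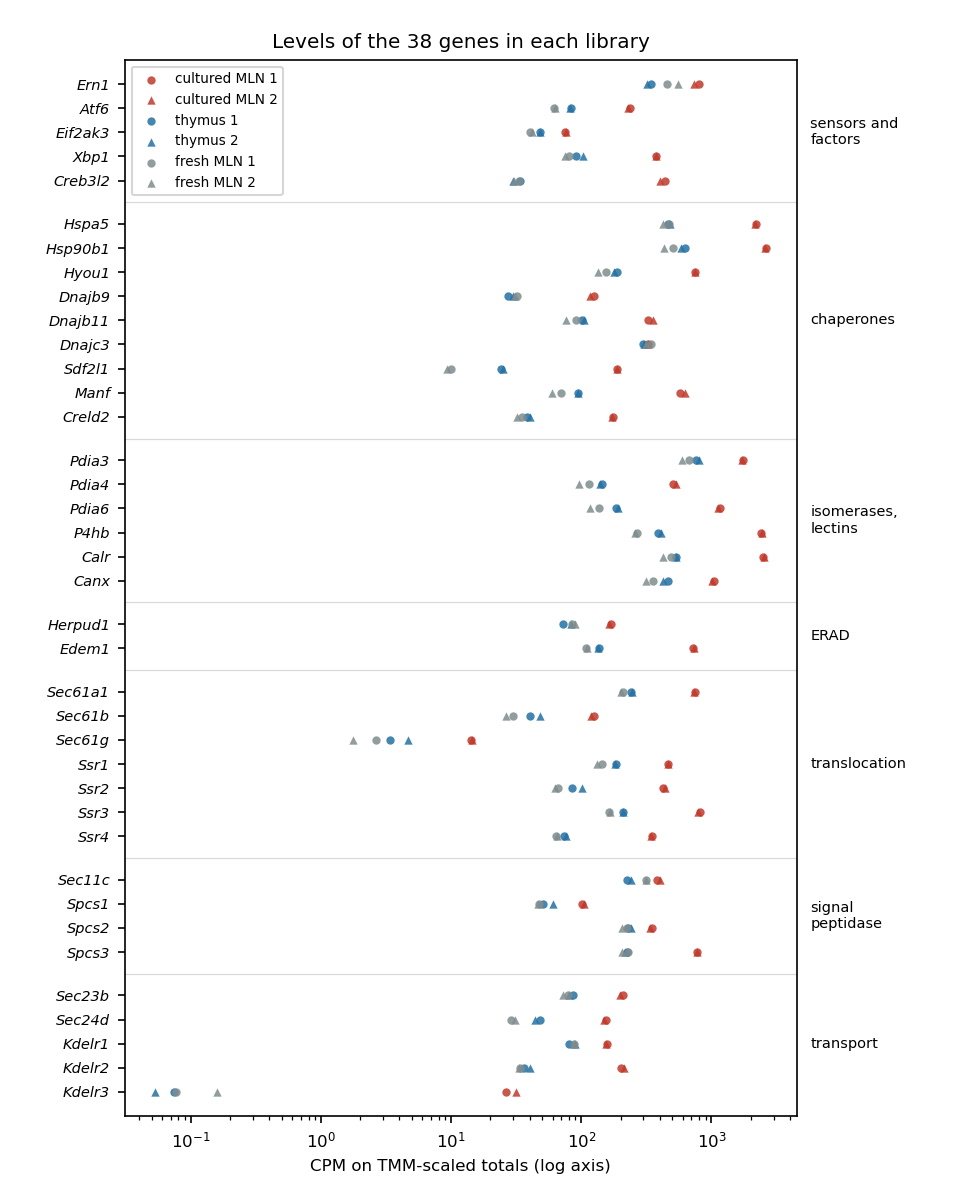
Levels of the 38 genes in each of 6 libraries, in CPM on TMM-scaled totals (log axis), grouped by role; circles are replicate 1 and triangles replicate 2. The cultured libraries lie to the right of the others for 37 genes and among them for Dnajc3, and Kdelr3 is the only gene under 1 CPM outside culture.

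Across the roles below, counts of called genes are to be read against all tested genes. Of those, 39.4% were higher and 38.1% lower in cultured cells, and 25.3% higher and 22% lower in thymus, each against fresh MLN. Among the sensors and transcription factors, all 5 were higher in cultured cells than in fresh MLN (median log2 fold change 1.89), with very unequal sizes. Creb3l2 (ENSMUSG00000038648, chromosome 6), an ER-bound factor cut and released like ATF6 and known from secretory cells, had 443 and 405 CPM in cultured cells, 34.0 and 29.9 CPM in thymus, and 33.2 and 30.4 CPM in fresh MLN. Both cultured libraries stood far above the others, and thymus overlapped fresh MLN. The log2 fold change was 3.74 ± 0.088 against fresh MLN (adjusted p = 4.18e-13). Between thymus and fresh MLN it was 0.0065 ± 0.085 and was not called (adjusted p = 0.968). Xbp1 (ENSMUSG00000020484, chromosome 11) had 377 and 374 CPM in cultured cells, 90.7 and 102 CPM in thymus, and 80.0 and 74.6 CPM in fresh MLN. It was higher in cultured cells by 2.28 ± 0.077 and in thymus by 0.32 ± 0.075 on the log2 scale, each against fresh MLN (adjusted p = 1.21e-11 and 0.00345). Atf6 (ENSMUSG00000026663, chromosome 1) had 238 and 228 CPM in cultured cells, 82.6 and 81.3 CPM in thymus, and 62.0 and 63.2 CPM in fresh MLN, and the 3 groups did not overlap. Its log2 fold change against fresh MLN was 1.89 ± 0.064 in cultured cells and 0.39 ± 0.063 in thymus (adjusted p = 1.26e-11 and 0.000257).

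The 2 kinase sensors had the smallest changes of the 5 in cultured against fresh MLN, and Ern1 had the largest in thymus against fresh MLN. Eif2ak3 (ENSMUSG00000031668, chromosome 6), which encodes PERK, had 75.1 and 75.9 CPM in cultured cells, 48.4 and 48.3 CPM in thymus, and 40.4 and 41.6 CPM in fresh MLN. Its log2 fold change against fresh MLN was 0.88 ± 0.067 in cultured cells and 0.24 ± 0.067 in thymus (adjusted p = 4.77e-08 and 0.0107). Ern1 (ENSMUSG00000020715, chromosome 11), which encodes IRE1, had 802 and 736 CPM in cultured cells, 342 and 322 CPM in thymus, and 457 and 556 CPM in fresh MLN. It was thus highest in cultured cells and lowest in thymus, with a log2 fold change against fresh MLN of 0.60 ± 0.091 in cultured cells and -0.61 ± 0.091 in thymus (adjusted p = 4.41e-05 and 0.000133). Per kilobase of exon Ern1 was the most abundant of the 5 in thymus and fresh MLN, at 40.6 and 62.0 CPM per kilobase, while in cultured cells Xbp1 stood above it, at 116 against 94.1 CPM per kilobase.

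**Figure D2:**
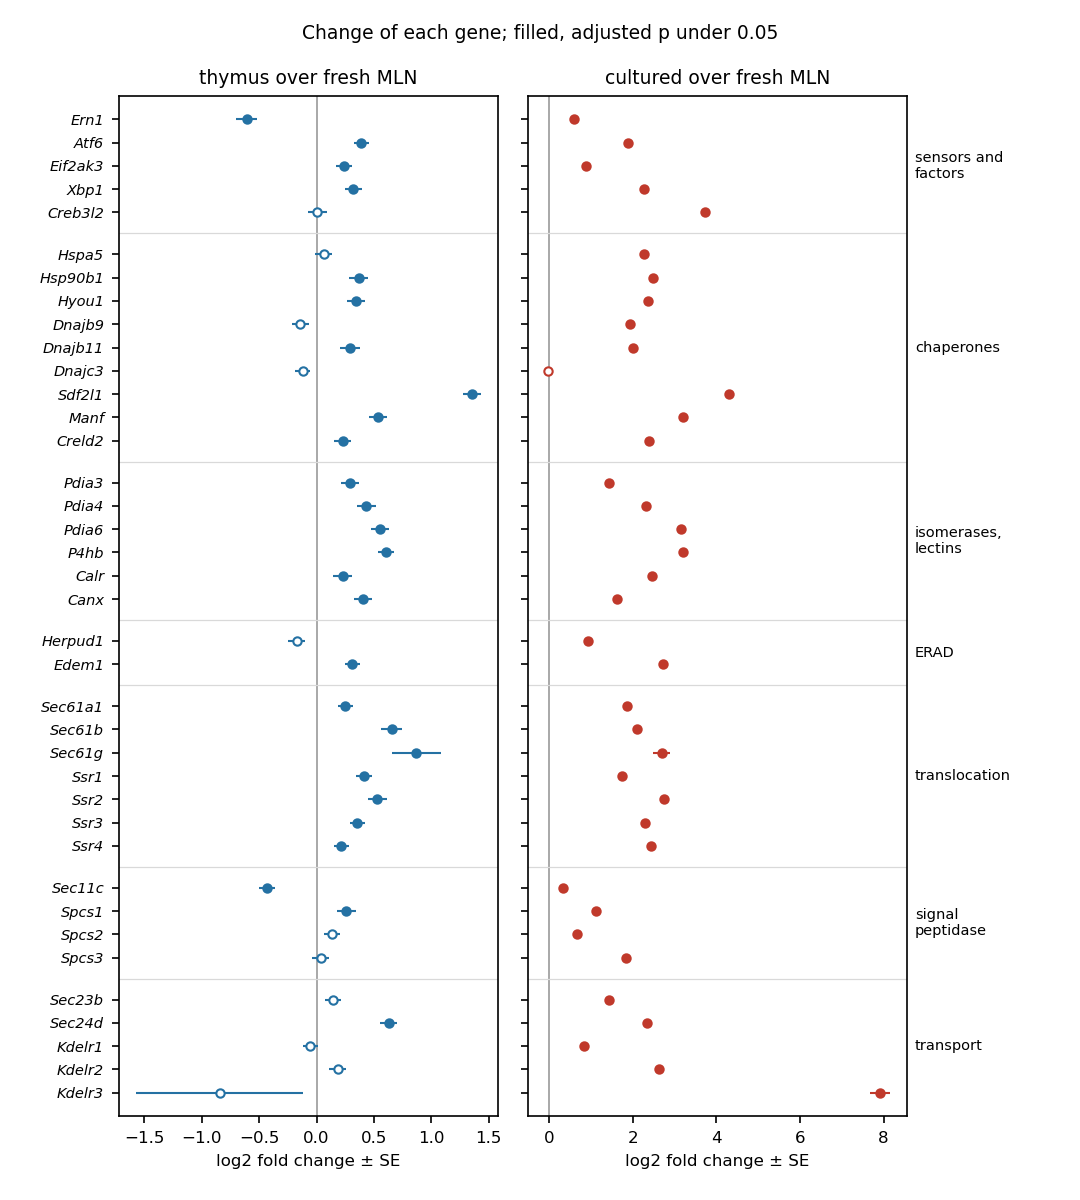
Log2 fold change with its standard error for each gene, thymus over fresh MLN at left and cultured over fresh MLN at right, on different horizontal scales; filled points passed an adjusted p of 0.05. Of the 38 points, 27 are filled at left, 25 of them above 0, and 37 at right, where only Dnajc3 is open.

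Of 9 ER chaperones and cochaperones, 8 were higher in cultured cells (median log2 fold change 2.36) and 6 in thymus (median 0.29), each against fresh MLN. Hspa5 (ENSMUSG00000026864, chromosome 2), which encodes BiP, the main ER Hsp70 and the partner that holds the sensors inactive, had 2182 and 2168 CPM in cultured cells, 459 and 478 CPM in thymus, and 475 and 423 CPM in fresh MLN. The cultured libraries stood apart and the other groups overlapped. The log2 fold change was 2.27 ± 0.079 in cultured cells (adjusted p = 1.65e-11) and 0.06 ± 0.076 in thymus, where it was not called (adjusted p = 0.547). Hsp90b1 (ENSMUSG00000020048, chromosome 10), which encodes the ER Hsp90 GRP94, had 2636 and 2595 CPM in cultured cells, 628 and 586 CPM in thymus, and 506 and 435 CPM in fresh MLN, and the groups did not overlap. It was higher by 2.47 ± 0.088 in cultured cells and by 0.37 ± 0.083 in thymus on the log2 scale (adjusted p = 1.97e-11 and 0.00285).

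Sdf2l1 and Manf had the largest changes of the chaperone genes after culture. Sdf2l1 (ENSMUSG00000022769, chromosome 16), whose product works in the BiP cycle with Dnajb11, had 189 and 189 CPM in cultured cells, 24.1 and 24.9 CPM in thymus, and 9.95 and 9.27 CPM in fresh MLN, with clear gaps between all 3 groups. That was 19.7-fold higher in cultured cells and 2.55-fold higher in thymus than in fresh MLN (log2 fold change 4.30 ± 0.077 and 1.35 ± 0.078, adjusted p = 5.5e-14 and 1.63e-08). Manf (ENSMUSG00000032575, chromosome 9), an ER protein that binds BiP and is secreted under stress, had 577 and 622 CPM in cultured cells, 93.5 and 93.4 CPM in thymus, and 69.2 and 60.0 CPM in fresh MLN. The change was 3.21 ± 0.084 on the log2 scale in cultured cells and 0.53 ± 0.08 in thymus (adjusted p = 1.1e-12 and 0.000128). Both genes stood lowest in fresh MLN. Hyou1, the large Hsp70 that acts as nucleotide exchange factor for BiP, had 744 and 746 CPM in cultured cells, 189.5 and 179 CPM in thymus, and 155 and 135 CPM in fresh MLN, and changed by 2.36 in cultured cells and 0.34 in thymus on the log2 scale. Creld2, another ER stress gene, changed by 2.38 in cultured cells and 0.23 in thymus, and all 4 changes were called.

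The DnaJ cochaperones of BiP did not move as a group. Dnajb11 was higher by 2.02 ± 0.087 in cultured cells and by 0.29 ± 0.085 in thymus on the log2 scale (adjusted p = 1.43e-10 and 0.0139). Dnajb9, which encodes ERdj4 and is a known XBP1 target, had 125 and 117 CPM in cultured cells, 27.5 and 29.6 CPM in thymus, and 32.3 and 30.7 CPM in fresh MLN. It was higher in cultured cells by 1.94 ± 0.074 (adjusted p = 3.93e-11), and in thymus its log2 fold change of -0.14 ± 0.075 was not called (adjusted p = 0.146). Dnajc3 (ENSMUSG00000022136, chromosome 14), which encodes p58IPK, a cochaperone of BiP also known as an inhibitor of PERK, had 323 and 325 CPM in cultured cells, 299 and 305 CPM in thymus, and 341 and 316 CPM in fresh MLN. All 6 libraries lay close together and none of the 3 comparisons was called (adjusted p = 0.774, 0.195 and 0.154 for cultured against fresh MLN, cultured against thymus and thymus against fresh MLN). Its sign depends on the scaling: with library totals alone Dnajc3 was called lower in cultured cells (log2 fold change -0.25 against fresh MLN and -0.16 against thymus), and with RLE factors it was called higher than in thymus by 0.16.

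All 6 protein disulfide isomerases and lectin chaperones were higher in cultured cells (median log2 fold change 2.39) and in thymus (median 0.42) than in fresh MLN. P4hb (ENSMUSG00000025130, chromosome 11), which encodes the abundant isomerase PDI, had 2417 and 2453 CPM in cultured cells, 391 and 411 CPM in thymus, and 268 and 260.5 CPM in fresh MLN, and the 3 groups did not overlap. On the log2 scale P4hb changed by 3.20 ± 0.075 in cultured cells and 0.60 ± 0.07 in thymus (adjusted p = 4.16e-13 and 1.37e-05). Pdia6 (ENSMUSG00000020571, chromosome 12), an isomerase that binds BiP and attenuates the sensors, had 1166 and 1117 CPM in cultured cells, 183 and 190.2 CPM in thymus, and 138 and 117 CPM in fresh MLN. It was higher by 3.16 ± 0.088 in cultured cells and by 0.55 ± 0.082 in thymus (adjusted p = 1.84e-12 and 0.00012).

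Calr and Canx encode the lectins calreticulin and calnexin, which hold glycoproteins during folding, and Pdia3 the isomerase that works with them. Calr (ENSMUSG00000003814, chromosome 8) had 2486 and 2539.7 CPM in cultured cells, 534 and 536 CPM in thymus, and 493 and 422 CPM in fresh MLN, and its log2 fold change was 2.46 ± 0.085 in cultured cells (adjusted p = 1.63e-11) and 0.23 ± 0.081 in thymus (adjusted p = 0.0354). Canx had 1046 and 1015 CPM in cultured cells, 459.5 and 425 CPM in thymus, and 354 and 314 CPM in fresh MLN, with log2 fold changes of 1.63 in cultured cells and 0.41 in thymus. Pdia3 had 1735 and 1726 CPM in cultured cells, 756 and 799 CPM in thymus, and 674 and 598 CPM in fresh MLN, and it rose least of the 6 in culture, by 1.44 ± 0.078 on the log2 scale (adjusted p = 1.54e-09). Pdia4 changed by 2.31 in cultured cells and 0.43 in thymus, both called. The order within the list differed between the groups. Per kilobase of exon, Calr and P4hb led in cultured cells at 872 and 851 CPM per kilobase, while Pdia3 stood at 551, whereas Pdia3 led at 248 in thymus and 203 in fresh MLN. The Calr pseudogene Calr-ps is counted separately, so reads of the 2 could be divided between them.

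ER-associated degradation (ERAD), which returns misfolded proteins to the cytosol, had 2 members, and both were higher in cultured cells than in fresh MLN. Edem1 (ENSMUSG00000030104, chromosome 6), which recognises glycoproteins bound for degradation, had 724 and 731 CPM in cultured cells, 136 and 135 CPM in thymus, and 109 and 109.8 CPM in fresh MLN. It was higher by 2.73 ± 0.068 in cultured cells and by 0.31 ± 0.065 in thymus (adjusted p = 6.57e-13 and 0.00153). Herpud1 (ENSMUSG00000031770, chromosome 8), a scaffold of the degradation complex, had 169.9 and 162 CPM in cultured cells, 72.7 and 82.9 CPM in thymus, and 85.4 and 89.8 CPM in fresh MLN. Its log2 fold change was 0.92 ± 0.074 in cultured cells (adjusted p = 8.9e-08) and -0.17 ± 0.075 in thymus, which was not called (adjusted p = 0.0752) but was called lower with RLE factors, upper-quartile factors, a filter of 5 CPM in 2 libraries or without thymus replicate 2.

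All 7 translocation genes were higher in cultured cells (median log2 fold change 2.28) and in thymus (median 0.41) than in fresh MLN. Sec61a1, Sec61b and Sec61g encode the channel through which new proteins enter the ER, and Ssr1 to Ssr4 the translocon-associated complex beside it. Sec61a1 (ENSMUSG00000030082, chromosome 6) had 751 and 736 CPM in cultured cells, 242 and 243 CPM in thymus, and 207 and 201 CPM in fresh MLN, and the groups did not overlap. It was higher by 1.87 ± 0.067 in cultured cells and by 0.25 ± 0.065 in thymus (adjusted p = 2.26e-11 and 0.00699). Sec61b had 124 and 118 CPM in cultured cells, 40.6 and 47.8 CPM in thymus, and 29.8 and 26.4 CPM in fresh MLN, with log2 fold changes of 2.11 in cultured cells and 0.65 in thymus. Sec61g was counted far less often, with 14.2 and 14.4 CPM in cultured cells, 3.40 and 4.68 CPM in thymus, and 2.65 and 1.75 CPM in fresh MLN. Its log2 fold changes were 2.69 ± 0.20 in cultured cells and 0.87 ± 0.22 in thymus, with the largest errors of the 7. Per kilobase of exon it stood at 5.79 CPM per kilobase in cultured cells, against 110.4 for Sec61a1 and 95.2 for Sec61b. The exon lengths are those of GENCODE M21, and the annotation used in counting is not given. The low value of Sec61g may therefore stem from the annotation or from reads that map to several places, which was not tested.

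Of the translocon-associated genes, Ssr2 changed most in culture. It had 426 and 443 CPM in cultured cells, 85.3 and 101 CPM in thymus, and 66.4 and 62.9 CPM in fresh MLN, with log2 fold changes of 2.75 ± 0.086 in cultured cells and 0.53 ± 0.083 in thymus (adjusted p = 5.68e-12 and 0.00019). In GENCODE M21, 12.8% of its exon bases also lie in a pseudogene on the opposite strand, and the strand setting of the counting is not given in the sources used here. Ssr1, Ssr3 and Ssr4 were higher in cultured cells by 1.75, 2.28 and 2.43, and in thymus by 0.41, 0.35 and 0.21 on the log2 scale, all called.

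The signal peptidase complex, which cuts the leader from proteins as they enter, had the smallest median of the 7 roles in cultured against fresh MLN. Its 4 genes were all higher in cultured cells than in fresh MLN, with a median log2 fold change of 0.90, and in thymus 1 was higher, 1 lower and 2 were not called (median 0.083). The thymus shares, 25% higher and 25% lower, lay near the 25.3% and 22% of all tested genes. Spcs3 (ENSMUSG00000054408, chromosome 8), a subunit of the complex, had 772 and 768 CPM in cultured cells, 226 and 217 CPM in thymus, and 228 and 204 CPM in fresh MLN. It was higher in cultured cells by 1.83 ± 0.074 (adjusted p = 7.81e-11), and thymus and fresh MLN overlapped (0.035 ± 0.073, adjusted p = 0.727). Sec11c (ENSMUSG00000024516, chromosome 18), a catalytic subunit, had 381 and 405 CPM in cultured cells, 225 and 240.2 CPM in thymus, and 316 and 312 CPM in fresh MLN. It was highest in cultured cells and lowest in thymus, as was Ern1, with log2 fold changes against fresh MLN of 0.32 ± 0.068 in cultured cells (adjusted p = 0.000701) and -0.43 ± 0.068 in thymus (adjusted p = 0.000208); with library totals alone the value in cultured cells was 0.10 and was not called. Spcs1 and Spcs2 were higher in cultured cells by 1.13 and 0.67. Spcs1 shares 16.3% of its exon bases with Glt8d1 on the opposite strand, and Spcs2 has a pseudogene, Spcs2-ps, counted separately. Exons on the opposite strand also overlap 10.3% of the exon bases of Hsp90b1, 8.16% of Sec61a1 and 8.05% of Eif2ak3, from genes that are not among the identifiers counted. Smaller overlaps with counted genes include Dcaf1 (4.14%) and 4930524O07Rik (4.71%) on the opposite strand of Manf. On the same strand as Hsp90b1 they include Gm25745 (3.3%) and Gm15344 (2.08%).

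In transport between ER and Golgi, all 5 members were higher in cultured cells (median log2 fold change 2.34), and 1 of 5, Sec24d, in thymus (median 0.15). The thymus share of 20% was below the 25.3% of all tested genes called higher there. Sec24d (ENSMUSG00000039234, chromosome 3), which selects cargo in COPII vesicles leaving the ER, had 155 and 149 CPM in cultured cells, 48.5 and 44.3 CPM in thymus, and 28.9 and 31.1 CPM in fresh MLN, with gaps between all groups. On the log2 scale it changed by 2.34 ± 0.075 in cultured cells and 0.63 ± 0.075 in thymus (adjusted p = 7.45e-12 and 1.71e-05). Sec23b, the partner coat subunit, had 209.6 and 198 CPM in cultured cells, 86.4 and 80.3 CPM in thymus, and 78.8 and 72.0 CPM in fresh MLN and changed by 1.44 ± 0.072 in cultured cells (adjusted p = 6.61e-10).

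The 3 KDEL receptors return escaped ER proteins such as BiP from the Golgi, and they changed to very different degrees. Kdelr3 (ENSMUSG00000010830, chromosome 15) had 26.3 and 31.6 CPM in cultured cells, 0.0739 and 0.0532 CPM in thymus, and 0.0771 and 0.159 CPM in fresh MLN. Those values rest on 2020 counts over both cultured libraries, 5 over both thymus libraries and 9 over both fresh MLN libraries. It was near the limit of detection without culture, since 3 counts equal between 0.0739 and 0.0905 CPM in a library, and its log2 fold change of 7.91 ± 0.24 in cultured cells (adjusted p = 5.2e-12) was the largest of the list. Kdelr2 (ENSMUSG00000079111, chromosome 5) had 201 and 212 CPM in cultured cells, 35.9 and 40.3 CPM in thymus, and 34.0 and 33.1 CPM in fresh MLN, and a log2 fold change of 2.62 ± 0.075 in cultured cells (adjusted p = 2.57e-12) and 0.18 ± 0.075 in thymus, not called (adjusted p = 0.0622). Kdelr1 (ENSMUSG00000002778, chromosome 7) had 158 and 154 CPM in cultured cells, 80.2 and 89.1 CPM in thymus, and 88.4 and 87.3 CPM in fresh MLN, and it rose by 0.83 ± 0.068 in cultured cells (adjusted p = 1.07e-07), the least of the 3.

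The makeup of several small gene families differed between the groups, here as shares of the family's CPM per kilobase, described with no test. Kdelr2 made up 51.6 and 52.6% of the KDEL receptor total in cultured cells, 31.4 and 31.6% in thymus, and 28.2 and 27.9% in fresh MLN. Kdelr1 made up 39.6 and 37.3% in cultured cells, 68.5 and 68.3% in thymus, and 71.7 and 71.9% in fresh MLN, so the leading receptor gene was Kdelr2 in cultured cells and Kdelr1 elsewhere. Sdf2l1 held 68.1 and 68.6% of the sum with Sdf2, its close relative, in cultured cells, 27.3 and 25.7% in thymus, and 12.8 and 10.99% in fresh MLN.

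Among the 3 Edem genes, Edem1 held 60.7 and 59.7% in cultured cells, 34.3 and 33.9% in thymus, and 30.2 and 29.6% in fresh MLN. Edem3 was called lower in cultured cells, with mean CPM of 76.8 against 141 in fresh MLN (log2 fold change -0.88). Among the 4 Sec24 genes, Sec24d held 24.3 and 24.1% in cultured cells, 8.93 and 8.59% in thymus, and 5.32 and 5.51% in fresh MLN. Atf6 held 38.6 and 37.5% of its sum with Atf6b in cultured cells, 23.6 and 24.04% in thymus, and 16.5 and 17.7% in fresh MLN. In each of these the member held its largest share in cultured cells and its smallest in fresh MLN. Sec11c and Sec23b did not follow that order: Sec11c held 65.4 and 65.7% of its sum with Sec11a in cultured cells, 63.2 and 61.6% in thymus, and 72.2 and 72.9% in fresh MLN.

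**Figure D3:**
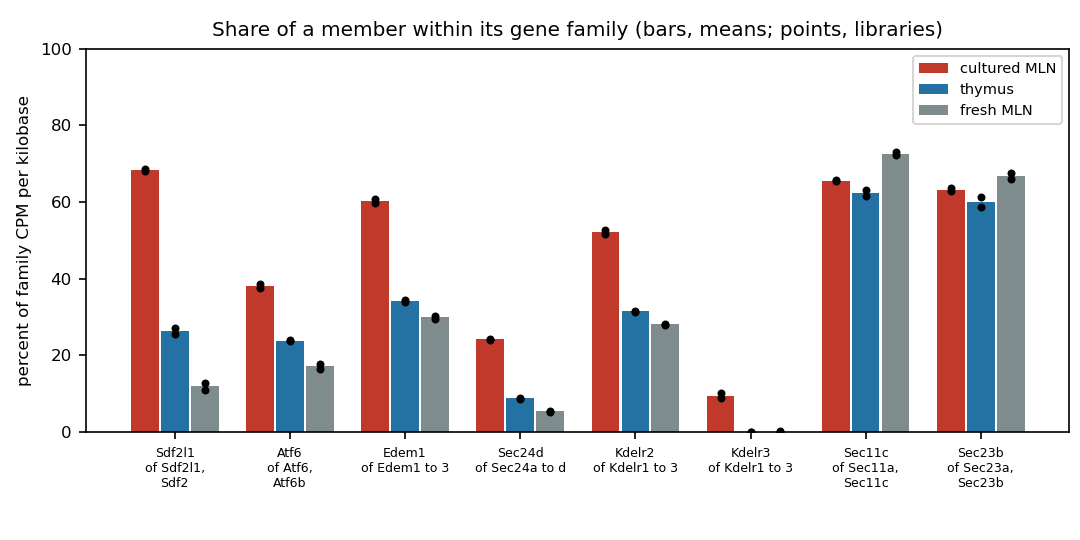
Share of a member in the summed CPM per kilobase of its gene family, in percent; bars are means of 2 libraries and points the libraries, with cultured MLN, thymus and fresh MLN from left to right. Sdf2l1 holds 68.1 and 68.6% in cultured cells, against 12.8 and 10.99% in fresh MLN, and Sec11c and Sec23b hold their largest share in fresh MLN.

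Members with and without a matched promoter element are described here by their medians, with no test. The 11 members with an ERSE, ERSE-II or UPRE match had a median log2 fold change in cultured cells against fresh MLN of 2.34, ranging from -0.022 for Dnajc3 to 7.91 for Kdelr3, and 10 of 11 were called higher. The 19 members with a promoter and no match had a median of 2.11, ranging from 0.60 to 4.30, and all 19 were called higher. In thymus against fresh MLN the medians were 0.23 with a match and 0.29 without. Sdf2l1, Manf and Creb3l2, which changed most after Kdelr3, had no match or no promoter entry. Outside the list, 11 tested genes held an ERSE; 3 of them were called higher in cultured cells and 5 lower, with a median log2 fold change of -0.24. For the ERSE-II, 4 of 6 tested genes outside the list were higher and 2 lower (median 1.30), and for the UPRE 53 of 109 were higher and 30 lower (median 0.27). Over all tested genes, 39.4% were called higher and 38.1% lower in cultured cells against fresh MLN. The 3 higher genes with an ERSE were Acacb, Derl3 and Syvn1, of which Derl3 and Syvn1 are genes of ER-associated degradation. A match describes letters in a window of 300 bases and shows neither binding nor use. Only exact letters were counted, so a promoter without a match may still hold a near copy of an element.

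**Figure D4:**
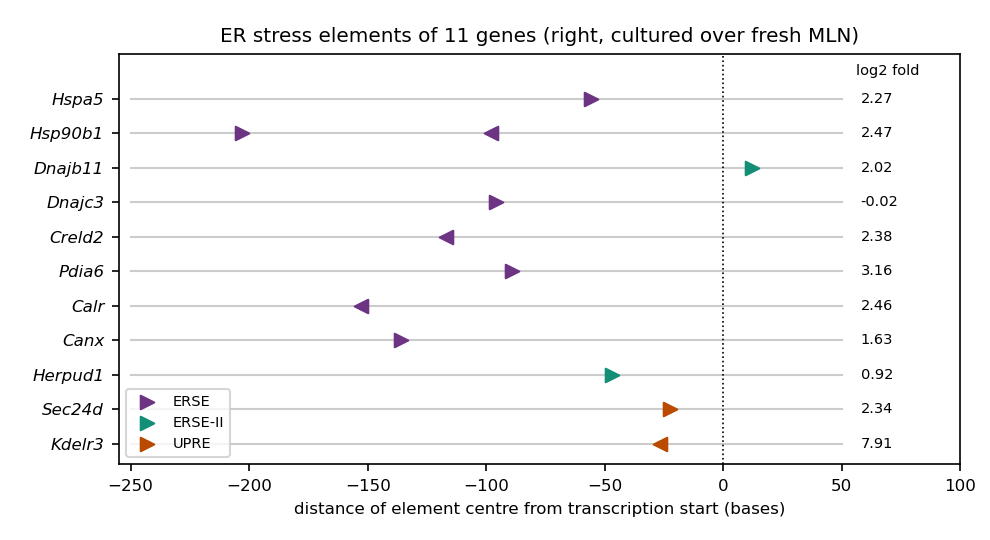
Distance from the transcription start, in bases, of the centre of each element matched in 11 member promoters; triangles point in the direction of the motif, and numbers at right are log2 fold changes of cultured over fresh MLN. The ERSE of Hspa5 lies 56 bases before the start and that of Dnajc3 96 bases before it, while the log2 fold changes are 2.27 and -0.022.

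Beyond the 38 genes, 8 further lists of the same pathways were read, and in cultured cells each had more genes higher than lower against fresh MLN. Thymus counts of these lists are to be read against the 25.3% of tested genes higher and 22% lower in thymus. In a list drawn up for the arm of PERK, ATF4 and CHOP, 11 of 12 genes were higher and 0 lower (median log2 fold change 1.47). The list is not specific to PERK, and the part of PERK in these changes was not tested. Atf4 itself had 417 and 393 CPM in cultured cells, against 119.9 and 138 CPM in fresh MLN. Nupr1, a stress-induced nuclear protein, had 169 and 155 CPM in cultured cells, against 0.514 and 0.425 CPM in fresh MLN, and Trib3, a pseudokinase that ATF4 and CHOP induce, had 25.0 and 22.4 CPM in cultured cells, against 0.0771 and 0.372 CPM in fresh MLN. Chac1, which degrades glutathione and is an ATF4 target, had 827 counts over both cultured libraries, against 2 counts over both fresh MLN libraries, a ratio of 456 with an exact 95% counting interval of 126 to 3773. Ddit3, which encodes CHOP, changed little, with 37.9 and 34.9 CPM in cultured cells, against 29.5 and 32.7 CPM in fresh MLN and a log2 fold change of 0.23 ± 0.09 (adjusted p = 0.0351), and it was lower in thymus than in fresh MLN (log2 fold change -0.43 ± 0.092, adjusted p = 0.00179). In thymus the list had 5 genes higher and 2 lower (median 0.039).

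Other folding enzymes were higher in cultured cells in 19 of 20 cases and lower in 1 (median log2 fold change 1.75). Ero1a, the oxidase that recharges PDI with disulfide bonds, had 7299 and 6351 CPM in cultured cells, 171 and 152 CPM in thymus, and 144 and 128 CPM in fresh MLN. The change in cultured cells against fresh MLN was 5.65 ± 0.11 on the log2 scale (adjusted p = 1.16e-13). Pdia5, a further isomerase, had 26.5 and 26.4 CPM in cultured cells, 1.60 and 1.01 CPM in thymus, and 0.0514 and 0.0797 CPM in fresh MLN, and Fkbp11, a prolyl isomerase of the ER, had 23.2 and 22.7 CPM in cultured cells, 0.123 and 0.0798 CPM in thymus, and 0.154 and 0.0531 CPM in fresh MLN. Pdia5 was also higher in thymus than in fresh MLN (log2 fold change 4.26 ± 0.44, adjusted p = 4.36e-06), whereas Fkbp11 was not called there (adjusted p = 0.985). In thymus 9 of the 20 were higher and 2 lower, among them Txndc5 (higher by 0.72) and Fkbp2 (higher by 0.81).

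The oligosaccharyltransferase, which adds glycans to proteins as they enter the ER, had 9 of 10 genes higher and 1 lower in cultured cells (median 1.77), and 6 higher and 1 lower in thymus (median 0.21). Ddost had 705 and 740.3 CPM in cultured cells, against 131 and 120.4 CPM in fresh MLN, and Rpn1 and Krtcap2 were higher by 2.29 and 2.57 on the log2 scale. The signal recognition particle and other translocon genes had 12 of 14 higher and 0 lower in cultured cells (median 0.90), and 3 higher and 0 lower in thymus (median 0.12). Tram2, a translocon-associated protein, led both, by 1.57 in cultured cells and 0.82 in thymus.

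The remaining transport genes had lower medians in cultured against fresh MLN than the 2.34 of the transport members. Other COPII and cargo genes had 15 of 19 higher and 1 lower in cultured cells (median 1.08), led by Tmed3, with 196 and 196 CPM in cultured cells, against 29.9 and 31.5 CPM in fresh MLN, Lman1, the cargo lectin ERGIC-53, with 374 and 378 CPM in cultured cells, against 63.0 and 60.4 CPM in fresh MLN, and Surf4, a cargo receptor, with 848 and 841 CPM in cultured cells, against 214 and 203 CPM in fresh MLN. Mia3 was listed at 0 in all 6 libraries, and whether the annotation used in counting accounts for that was not tested. COPI, the coat of vesicles that return from the Golgi, had 10 of 10 higher (median 1.08), among them Arf1 and Cope by 1.26 and 1.26, and Copz2, with 1240 counts over both cultured libraries against 2 over both fresh MLN libraries, a ratio of 684 (exact 95% counting interval 189 to 5653). In thymus COPII had 4 of 19 higher and 2 lower (21.1 and 10.5%, median 0.027), neither share above that of all tested genes, and COPI 5 higher and 0 lower (median 0.15).

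Degradation and regulator genes were the most mixed. Other ERAD genes had 12 of 18 higher and 4 lower in cultured cells (median 0.73). Selenos had 177 and 167 CPM in cultured cells, against 42.8 and 40.1 CPM in fresh MLN, Os9, a lectin of the degradation complex, had 789.6 and 829.6 CPM in cultured cells, against 261 and 268 CPM in fresh MLN, and Edem2 rose by 1.83. In thymus that list had 2 higher and 2 lower (median -0.051). Other regulators had 6 of 10 tested genes higher and 3 lower in cultured cells (median 0.47), and 2 higher and 4 lower in thymus (median -0.19). Creb3l1, a relative of Creb3l2, had 6.79 and 7.22 CPM in cultured cells, 0.616 and 0.558 CPM in thymus, and 0.0514 and 0.159 CPM in fresh MLN, and Wfs1, an ER membrane protein induced by stress, had 20.03 and 19.5 CPM in cultured cells, against 6.78 and 5.21 CPM in fresh MLN. Traf2, an adaptor of IRE1, was lower in both, with log2 fold changes of -0.56 in cultured cells and -0.47 in thymus, and Bak1 was higher by 1.30 and 0.56.

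**Figure D5:**
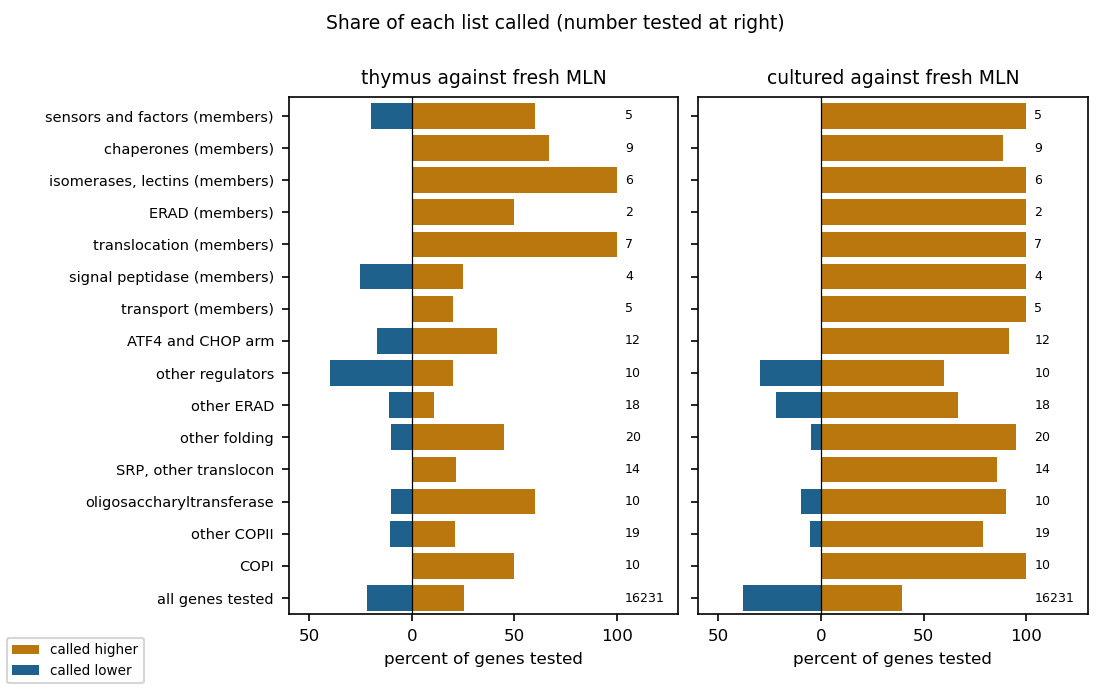
Percent of the tested genes of each list called higher (right of 0) or lower (left of 0) by edgeR at an adjusted p of 0.05, thymus against fresh MLN at left and cultured against fresh MLN at right, with the number tested beside each bar. In cultured cells every list has more genes higher than lower, against 39.4% higher and 38.1% lower among all 16231 genes. In thymus the shares over all genes are 25.3% higher and 22% lower.

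Other programs differed between the same libraries. The summed CPM of 9 type 2 and related cytokine genes was 20298 and 18783 in cultured cells, 50.6 and 56.2 in thymus, and 82.9 and 78.4 in fresh MLN. Il13 had 10278 and 10071 CPM in cultured cells, 12.4 and 15.6 CPM in thymus, and 10.1 and 7.97 CPM in fresh MLN, and Il5 had 8988 and 7739 CPM in cultured cells, 2.59 and 3.22 CPM in thymus, and 2.52 and 2.68 CPM in fresh MLN. Of 8 cytokine genes tested, 1, Il13, was called higher in thymus than in fresh MLN and 4 were called lower. The 38 ER genes summed to 24748 and 24645 CPM in cultured cells. Their sums were 6957 and 7020 CPM in thymus and 6347 and 5934 CPM in fresh MLN. Of 8 cell cycle genes, 8 were higher in cultured cells and 8 in thymus than in fresh MLN, with summed CPM of 1488 and 1595 in cultured cells, 1779 and 1631 in thymus, and 165 and 144 in fresh MLN. Counts of called genes here are to be read against all tested genes. Of those, 39.4% were higher and 38.1% lower in cultured cells, and 25.3% higher and 22% lower in thymus, each against fresh MLN. Cytosolic heat shock genes were higher in 11 of 11 cases in cultured cells (median log2 fold change 1.01), with Hspa4 and Bag3 by 2.25 and 2.07, and in 7 of 11 in thymus (median 0.43), with Hsp90aa1 by 1.10 and Hspa1b by 2.13. Hspa1b, an inducible Hsp70, had 3.71 and 2.29 CPM in cultured cells, 5.67 and 4.79 CPM in thymus, and 1.13 and 1.25 CPM in fresh MLN. The part of these programs in the changes of the ER genes was not tested.

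Markers of other cells were also read, since plasma cells in particular are rich in this machinery. For all marker lists, counts of called genes are to be read against all tested genes. Of those, 39.4% were higher and 38.1% lower in cultured cells, and 25.3% higher and 22% lower in thymus, each against fresh MLN. The 8 plasma cell genes summed to 345 and 359.7 CPM in cultured cells, 88.5 and 87.7 CPM in thymus, and 245 and 217 CPM in fresh MLN. Tnfrsf17 had 0 counts in all 6 libraries, and Mzb1 had 0.0905 and 0.165 CPM in cultured cells, 0.0246 and 0.0532 CPM in thymus, and 0.0257 and 0.106 CPM in fresh MLN. Igkc had 0 and 0.0276 CPM in cultured cells, 0.197 and 0.239 in thymus and 0.591 and 3.82 in fresh MLN. Of 6 plasma cell genes tested, 3 were higher and 3 lower in cultured cells, and 2 higher and 4 lower in thymus, each against fresh MLN. Ighm was among the lower in both, with mean CPM of 66.1 in cultured cells, 57.1 in thymus and 161 in fresh MLN. The plasma cell genes that were higher in cultured cells were Irf4 (155 and 160.1 CPM in cultured cells, against 0.668 and 0.637 CPM in fresh MLN), Prdm1 and Sdc1, of which Irf4 and Prdm1 are factors that activated lymphocytes also express. Of 4 B cell genes that were tested, 2 were higher and 1 lower in cultured cells, and 1 higher and 2 lower in thymus, each against fresh MLN. Cd79b had 47.1 and 50.3 CPM in cultured cells, 17.6 and 22.3 CPM in thymus, and 16.7 and 11.1 CPM in fresh MLN, Cd22 had 7.84 and 7.03 CPM in cultured cells, 0.468 and 0.186 CPM in thymus, and 1.26 and 1.41 CPM in fresh MLN, and Cd74 had 17.3 and 22.5 CPM in cultured cells, 6.41 and 9.71 CPM in thymus, and 43.5 and 43.6 CPM in fresh MLN. Pax5, a defining factor of B cells, had 0.0905 and 0.165 CPM in cultured cells, 0 and 0.106 CPM in thymus, and 0 in both fresh MLN libraries.

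The 8 macrophage and monocyte genes summed to 26.5 and 28.8 CPM in cultured cells, 9.59 and 12.9 CPM in thymus, and 88.6 and 92.2 CPM in fresh MLN. The sum in fresh MLN was mostly Cybb, at 72.3 and 66.8 CPM. Of the 7 tested, 3 were higher and 3 lower in cultured cells (42.9% each), near the shares of 39.4% and 38.1% over all tested genes. In thymus 0 were higher and 3 lower. Cd68 was among the higher in cultured cells, with a log2 fold change of 2.05 ± 0.17. The 7 T cell genes summed to 54.8 and 63.2 CPM in cultured cells, 102 and 103 CPM in thymus, and 114 and 120.0 CPM in fresh MLN, mostly from Cd3e. In cultured cells 0 were higher and 5 lower, and in thymus 3 were higher and 1 lower. Among those higher in thymus were Cd4, with 5.13 and 6.49 CPM in thymus, against 1.00 and 0.929 CPM in fresh MLN, and Cd5, with 5.84 and 5.43 CPM in thymus, against 4.01 and 2.60 CPM in fresh MLN. The 8 mast cell and basophil genes summed to 758 and 1055 CPM in cultured cells, 816 and 831 CPM in thymus, and 339.8 and 383 CPM in fresh MLN, with Mcpt8 alone at 588 and 866 CPM in cultured cells and Kit and Cpa3 making up most of the thymus sum. Of the 4 tested, 2 were higher and 2 lower in cultured cells, and 2 higher and 0 lower in thymus, each against fresh MLN. Cpa3 and Kit were the 2 lower in cultured cells, with mean CPM of 0.10 and 179, against 26.1 and 335 in fresh MLN. The part of these cells in the results was not tested.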

How the data were processed

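The authors deposited, for each of 6 libraries of mouse ILC2, raw counts of reads per Ensembl gene from a stranded mRNA kit (per the labels). HTSeq 0.5.3p9 and the builds mm9 and NCBIM37 come from the submitters' processing notes. For the aligner, the gene annotation used and whether counting was by strand, the entry is "not given in the sources used here", so values of genes with an overlapping neighbour on the other strand are uncertain. Of 37991 identifiers, 32919 matched a symbol in GENCODE M21, which also gave exon lengths. Those lengths may differ from the annotation used in counting, so levels per kilobase are uncertain when genes are compared with each other. Entries that name no gene numbered 0.

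Genes were filtered with the default rule of filterByExpr, which kept 16231 of 23871 genes with a count, all 38 members among them. A single model with a mean for each of 3 groups covered the 6 libraries, in R 4.3.3 with edgeR 4.0.16: TMM factors, quasi-likelihood F test, two-sided, Benjamini-Hochberg adjustment over all genes tested, threshold 0.05. The fit had 3 residual degrees of freedom, to which 9.54 prior ones were added, and the biological coefficient of variation was 0.066. The SE of a log2 fold change is its size divided by the square root of F. With 2 libraries against 2, an exact permutation of a single value cannot go below p = 0.333, so none was run. Counting intervals leave out all error but that of counting, because the reads carry no molecular identifiers. Replicates differed beyond sampling noise in every group (chi-square per degree of freedom 8.36 to 13.5).

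The members and the gene lists were chosen with earlier results of these data known. The text names all 38 members, and of each further list up to 3 called genes by size of change, among those whose higher group reached 5 CPM, besides Id1, Gata3, Il1rl1, Il5 and Il13; Atf4, Ddit3, Mia3, Acacb, Derl3, Syvn1, Thy1, Mzb1, Igkc, Pax5, Tnfrsf17 and the further relatives in gene families were named after their values were seen. Ero1a was matched through its older symbol. Part of 1 marker list is not reported here. The scripts were tested on simulated data. Alternatives were DESeq2 1.42.0, RLE and upper-quartile factors, unscaled library totals, testing without a filter or with 5 CPM in 2 libraries, a test against a 2-fold change, only the 4 libraries compared, a replicate block, and each library left out.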

Additional observations from a re-analysis of the deposited data

How the results depend on the processing

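With 2 libraries a group, differences between thymus and fresh MLN of about 0.2 on the log2 scale depended on the setting, and those of cultured cells rarely did. Tested against a 2-fold change, thymus against fresh MLN gave 1298 genes (897 higher, 401 lower), with 1 member higher and 0 lower; cultured against fresh MLN gave 5676 genes (3189 higher, 2487 lower), with 30 members higher; and cultured against thymus gave 4455 genes (2429 higher, 2026 lower), with 31 members higher. Fewer genes pass by construction there. With library totals alone, the median of all genes moved to -0.23 in cultured against fresh MLN and -0.32 in cultured against thymus. Relative to that, the members' medians of 2.05 and 1.59 remained well above it, 1 member was lower in each (Dnajc3, -0.25 and -0.16), and Sec11c was not called against fresh MLN; the cause was not tested. Of all calls, 41.8% were then higher in cultured cells than in fresh MLN (50.8% with TMM factors) and 35.1% higher than in thymus (47.9%), and of the members' calls 97.3 and 97.4%.

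Members called higher in thymus numbered 18 to 26 when 1 library was left out (18 without fresh MLN replicate 2) and 23 to 26 under the other settings but the 2-fold test. Calls were lost there for Calr (RLE factors, only the 4 libraries compared, without fresh MLN replicate 2 or either cultured library), Creld2 and Spcs1 (DESeq2 and some libraries left out), Ssr4 and Eif2ak3 (some libraries left out), and Dnajb11, Pdia3 and Sec61a1 (without fresh MLN replicate 2). Kdelr2 was called higher with library totals, the replicate block and without thymus replicate 1. In cultured cells 37 members were higher against fresh MLN under each setting but library totals (36) and the 2-fold test.

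Signs turned only for 5 members near 0. In thymus against fresh MLN, Creb3l2 was -0.022 with RLE factors and with DESeq2, -0.013 with upper-quartile factors, -0.0074 with the 5 CPM filter and -0.085 to 0.10 with 1 library left out (-0.059 without fresh MLN replicate 2). With 1 library left out, Kdelr1 ran from -0.12 to 0.025, Hspa5 from -0.025 to 0.15 and Spcs3 from -0.046 to 0.12. In cultured against fresh MLN, Dnajc3 was 0.0066 with RLE factors and with DESeq2 and ran from -0.085 to 0.033 with 1 library left out. None of these values was called. In cultured against thymus, Dnajc3 turned from 0.10 to -0.16 with library totals alone, and there it was called lower (edgeR, adjusted p = 0.0485).

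The labels give the groups the same replicate numbers, without saying that a number marks a shared animal or day. Deviations of same-numbered libraries correlated at 0.20 for thymus and fresh MLN, 0.030 for cultured and fresh MLN and 0.063 for cultured cells and thymus, so the numbers were not taken as pairs. With the replicate block, 8049 genes were called in thymus against fresh MLN (members 26 higher, 2 lower), 12738 in cultured against fresh MLN (37 higher) and 11944 in cultured against thymus (37 higher).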
